A study of Mus musculus with 4 samples.

Results

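Atf4 and 9 genes tied to it in the integrated stress response and in serine synthesis were measured in ID8 cells, a mouse ovarian cancer cell line grown from ovarian surface epithelium. They are Atf4, Ddit3, Trib3, Chac1, Sesn2, Ddit4, Asns, Phgdh, Psat1 and Shmt2, taken by symbol from the deposited table, so they are 10 of its 22063 genes. Their symbols stand on 11 rows, since Ddit3 has a second row (ENSMUSG00000116429) with a single count in 1 shUSP9X library and none elsewhere, which was not tested. The study asked how the deubiquitinase USP9X acts in ovarian cancer cells. The shCtrl group (2 libraries) carried a control shRNA and is labelled wild type, and the shUSP9X group (2 libraries) carried an shRNA against USP9X and is labelled as a knockdown. Both groups are ID8 cells, and the shRNAs of the study were delivered in the lentiviral vector pLKO.1-puro. Which USP9X shRNA the sequenced cells carried, whether TGF-β1 was added and at which oxygen level they grew are not given in the sources used here. The labels number the libraries within a group but do not say whether they came from separate cultures, so p-values measure only the spread between these libraries, which may be technical. Libraries held 17232006 and 15611363 estimated counts in shCtrl and 19978889 and 17021261 in shUSP9X.

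In the integrated stress response, kinases that sense unfolded proteins, missing amino acids, heme shortage or viral RNA phosphorylate the initiation factor eIF2α. General translation then falls while the mRNA of ATF4 is translated more, and ATF4 protein, a bZIP transcription factor, activates genes for amino acid synthesis, amino acid import, redox control and, with its partner CHOP (encoded by Ddit3), cell death. Serine synthesis runs from 3-phosphoglycerate through PHGDH, PSAT1 and PSPH, and SHMT2 then converts serine to glycine in mitochondria and feeds the folate cycle. Tumour cells often rely on both. The mRNA level of Atf4, which is what RNA sequencing reads, is not a measure of ATF4 protein.

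ATF4 binds DNA with C/EBP proteins at a composite C/EBP–ATF element, so the 250 bases before the RefSeq gene start (GRCm38.p6) were searched on both strands for its core, TGATGNAA and for the looser form TGNNGCAA, which overlaps with it where N in the first is C. TGATGNAA was found before 1056 of 27025 genes (3.91%) and before 2 of the 10 members, Asns and Chac1. TGNNGCAA was found before 11% of genes and before 4 members, Trib3, Chac1, Sesn2 and Psat1. Together 5 members held a match to either form, while Atf4, Ddit3, Phgdh, Shmt2 and Ddit4 held none in this window. The share of all genes with a match to either form was not taken, so this count has no background beside it. A match is a stretch of letters and not a measured binding site. For Chac1, the member that fell most, the window held 3 matches and is shown up to the GENCODE start of the gene, which lies shortly before its RefSeq start. Beside it stand the single matches of 2 members that fell (Asns and Trib3), of 1 whose fall was small (Sesn2) and of 1 that was not called (Psat1), with 11 bases on each side. All are read 5′ to 3′ along the strand of the gene, and capitals mark the matched letters on either strand. Chac1 is at chr2:119350992-119351228 (plus strand), Asns at chr6:7693214-7693243, Trib3 at chr2:152344075-152344104, Sesn2 at chr4:132510656-132510685 and Psat1 at chr19:15925177-15925206 (all minus strand).
Chac1: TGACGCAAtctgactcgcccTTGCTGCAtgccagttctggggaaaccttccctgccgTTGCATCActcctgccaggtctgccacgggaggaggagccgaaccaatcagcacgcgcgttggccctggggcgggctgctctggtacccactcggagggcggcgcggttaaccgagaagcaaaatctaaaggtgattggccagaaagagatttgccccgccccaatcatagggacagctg
Asns: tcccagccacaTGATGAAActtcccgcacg
Trib3: cgggtcacagaTGGTGCAAtcccgggccgc
Sesn2: catgcaaaagtTTGCAGCAtctgtgcgagg
Psat1: acgcgggtggcTGGTGCAAtcccctgctct

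The 3 matches of Chac1 begin 250, 230 and 193 bases before its RefSeq start, and the last of them, read on the opposite strand, satisfies both forms. The match of Asns begins 23 bases before its RefSeq start and lies within the longest GENCODE extent of the gene. That of Trib3 begins 33 bases before the start, that of Sesn2 218 bases and that of Psat1 136 bases before 1 of the 2 RefSeq starts of the gene. The match of Psat1 also lies within the longest GENCODE extent of its gene. Trib3 and Psat1 share the same 8 letters, TGGTGCAA. The core of the hypoxia response element, ACGTG, stood before 18.5% of genes and before 2 members, Asns and Ddit4.

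The knockdown was first checked in its target. Usp9x (ENSMUSG00000031010), the X-linked gene of the deubiquitinase, had 298 and 282 CPM (counts scaled to library size and normalised by TMM) in shCtrl and 19.7 and 20.5 in shUSP9X. Its log2 fold change was -3.85 (SE 0.0585, edgeR adjusted p = 4.7e-26), in the direction of the labels. With the offset for GC content and transcript length described below it was -2.76 (SE 0.0553).

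The stress genes and Asns were lower in shUSP9X cells, while by the counts Phgdh was higher and Psat1 and Shmt2 were not called. These 3 enzymes were lower too once GC content and transcript length were corrected for by an offset in the fit. At an adjusted p under 0.05 and without that offset, 7 members fell (Chac1, Trib3, Ddit3, Asns, Atf4, Ddit4 and Sesn2), 1 rose (Phgdh) and 2 were not called (Psat1 and Shmt2). Changes were common in these libraries, since 67.3% of the 11448 genes tested were called, 33.6% lower and 33.8% higher. All 10 members passed the filter on low counts in both groups. Their median log2 fold change was -0.40 (-0.69 with the offset), against 0.00 over all genes tested. The study's methods give a cutoff of p under 0.05 and a fold change above 1.5. With that p taken here as unadjusted, 4 members were lower (Chac1, Trib3, Ddit3 and Asns) and 0 higher, against 18.7% and 10.8% of all genes tested. Asns stood at the edge of that cutoff, and without it 3 members passed. The groups did not overlap in 9 members, of which 8 were lower in both shUSP9X libraries (41.0% of genes tested were) and 1, Phgdh, was higher in both (41.2% were). The members together took 2403 and 2482 CPM in shCtrl and 2236 and 2242 CPM in shUSP9X.

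**Figure D1:**
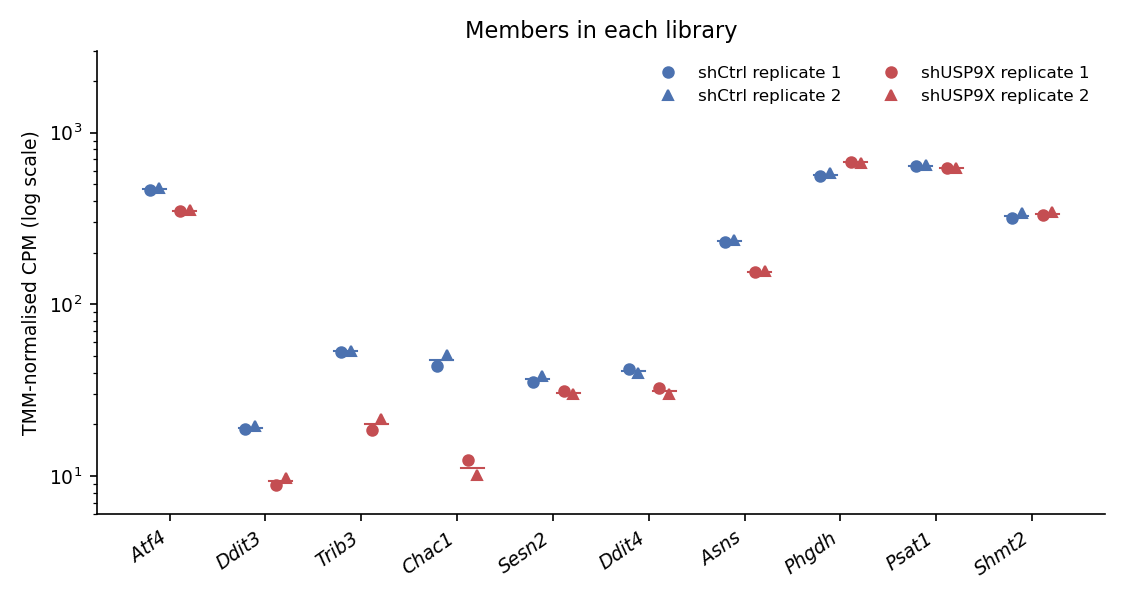
TMM-normalised CPM (log scale) of the 10 members, with 1 point per library (circles replicate 1, triangles replicate 2), shCtrl in blue, shUSP9X in red and the group mean as a line. The groups are furthest apart in Chac1 (43.5 and 50.7 CPM against 12.4 and 10.1), stand close in Psat1 and overlap in Shmt2, and Phgdh is the single member whose shUSP9X libraries lie above both shCtrl libraries.

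Atf4 (ENSMUSG00000042406, GRCm38 chr15:80255184-80257541, plus strand), the transcription factor at the centre of the response, had 466 and 476 CPM in the shCtrl libraries and 351 and 353 CPM in the shUSP9X libraries. The groups did not overlap, and replicates of a group lay much closer to each other than the groups did. Its mean fell by 25.3%, from 471 ± 7.27 to 352 ± 1.70 CPM (SD, n = 2 per group), with a log2 fold change of -0.42 (SE 0.0357, edgeR adjusted p = 7.0e-11). The change is smaller than the fold of 1.5 in the study's cutoff, but with the offset it was larger than that fold (-0.74).

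The genes whose profile over the 4 libraries lay nearest to that of Atf4 were St6gal1, a sialyltransferase, Rap1b, a small GTPase, and Nedd9, a docking protein of focal adhesions. Their Euclidean distances to Atf4, in log2 CPM centred on each gene, were 0.0136, 0.0159 and 0.0189. With 2 libraries per group such a distance mostly reflects an equal difference between the groups, which for these genes was -0.43, -0.44 and -0.41 on the log2 scale. With the offset none of the 3 stayed near Atf4 (-0.74), with St6gal1 at -0.49, Nedd9 at -0.26 and Rap1b higher at 0.14 (edgeR adjusted p = 0.00232).

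Ddit3 (chr10:127290774-127296288, plus strand) encodes CHOP, a bZIP factor that ATF4 induces and that promotes cell death under lasting stress. It had 18.7 and 19.6 CPM in shCtrl and 8.90 and 9.73 CPM in shUSP9X, and the groups did not overlap. The fall was 2.06-fold, with a log2 fold change of -1.04 (SE 0.125, edgeR adjusted p = 4.6e-08). Its counts numbered 324 and 310 in the shCtrl libraries and 176 and 164 in the shUSP9X libraries, the fewest of the 10 members in shCtrl. Ddit3 overlaps Mars, the methionyl-tRNA synthetase gene, on the opposite strand. Mars was counted 3143 and 2824 times in the shCtrl libraries and 3378 and 2782 times in the shUSP9X libraries. No source used here states that strand was used in counting, so reads of both genes in the shared sequence cannot be told apart.

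Trib3 (chr2:152337422-152344032, minus strand) encodes a pseudokinase that is induced by ATF4 with CHOP and acts back on them as an inhibitor. It had 53.1 and 53.6 CPM in shCtrl and 18.6 and 21.5 CPM in shUSP9X. The difference between the groups was far larger than that between replicates. Trib3 fell 2.67-fold (log2 fold change -1.42, SE 0.0862, edgeR adjusted p = 8.4e-14), the second largest fall of the 10 members.

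Chac1 (chr2:119351229-119354381, plus strand), the gene behind the printed stretch with 3 matches, encodes a γ-glutamylcyclotransferase that degrades glutathione and is a late target of ATF4 and CHOP. It had 43.5 and 50.7 CPM in shCtrl and 12.4 and 10.1 CPM in shUSP9X. The replicates of each group lay further apart than in most other members, and the gap between them was still several times wider than either spread. The mean went from 47.1 ± 5.03 to 11.2 ± 1.63 CPM (SD, n = 2 per group), 4.16-fold lower, with a log2 fold change of -2.06 (SE 0.109, edgeR adjusted p = 4.4e-15). When any 1 library was left out, the value lay between -2.22 and -1.92. The ratio of the FPKM values (fragments scaled for transcript length and library size) of Chac1 to those of Atf4 was 0.0983 and 0.112 in shCtrl and 0.0372 and 0.03 in shUSP9X, so Chac1 fell more than Atf4 in both shUSP9X libraries.

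Sesn2 (chr4:132492032-132510501, minus strand) encodes sestrin 2, a leucine sensor that holds back mTORC1 through the GATOR complexes. It had 35.3 and 38.5 CPM in shCtrl and 31.1 and 30.0 CPM in shUSP9X. The groups did not overlap, but the gap was of the order of the spread in shCtrl. The log2 fold change was -0.27 (SE 0.0845, edgeR adjusted p = 0.0063). The call was lost with DESeq2 (-0.26, adjusted p = 0.089), and in edgeR without shCtrl replicate 2 (-0.20, adjusted p = 0.0578) or without shUSP9X replicate 2 (-0.24, adjusted p = 0.0583).

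Ddit4 (chr10:59949669-59951834, minus strand) encodes REDD1, an inhibitor of mTORC1 that is induced by ATF4, by glucocorticoids and by hypoxia. It had 42.2 and 39.8 CPM in shCtrl and 32.7 and 29.9 CPM in shUSP9X. The groups did not overlap, and the mean fell by 23.5% (log2 fold change -0.39, SE 0.0823, edgeR adjusted p = 1.9e-04), close to the fall of Atf4.

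Asns (chr6:7675169-7693254, minus strand) encodes asparagine synthetase, a standard reporter of ATF4 activity. It had 232 and 236 CPM in shCtrl and 155 and 156 CPM in shUSP9X. Replicates were nearly equal, and the groups were well apart. The fall was 1.5-fold, with a log2 fold change of -0.59 (SE 0.0423, edgeR adjusted p = 2.4e-12). This is just past the study's cutoff, and Asns fell short of it with DESeq2 (-0.5795), with no filter on low counts (-0.5776), and without shCtrl replicate 2 (-0.5713), shUSP9X replicate 1 (-0.5806) or shUSP9X replicate 2 (-0.5848).

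By the counts, none of the 3 enzymes of the serine and glycine route was called lower, whereas all 3 were called lower under the offset. Phgdh (chr3:98313170-98339990, minus strand), the first enzyme of serine synthesis, had 556 and 584 CPM in shCtrl and 675 and 668 CPM in shUSP9X. It was 17.8% higher in shUSP9X, with no overlap (log2 fold change 0.24, SE 0.0345, edgeR adjusted p = 1.2e-06). GENCODE M21 annotates 9 other genes that match a Phgdh transcript over at least 200 bases at 95% identity or more. None of them has a row in the deposited table. The way reads of the shared sequence were divided is not given in the sources used here, so the Phgdh values are uncertain in that respect.

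Psat1 (chr19:15904678-15947337, minus strand), the transaminase of the second step, had 636 and 645 CPM in shCtrl and 622 and 619 CPM in shUSP9X. The groups stood close together without overlapping (log2 fold change -0.05, SE 0.0330, edgeR adjusted p = 0.231). Shmt2 (chr10:127517123-127522444, minus strand), the mitochondrial serine hydroxymethyltransferase, had 320 and 339 CPM in shCtrl and 330 and 345 CPM in shUSP9X. Its groups overlapped (log2 fold change 0.03, SE 0.0394, edgeR adjusted p = 0.459). A gene that missed the threshold is not thereby shown to be equal in both groups.

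**Figure D2:**
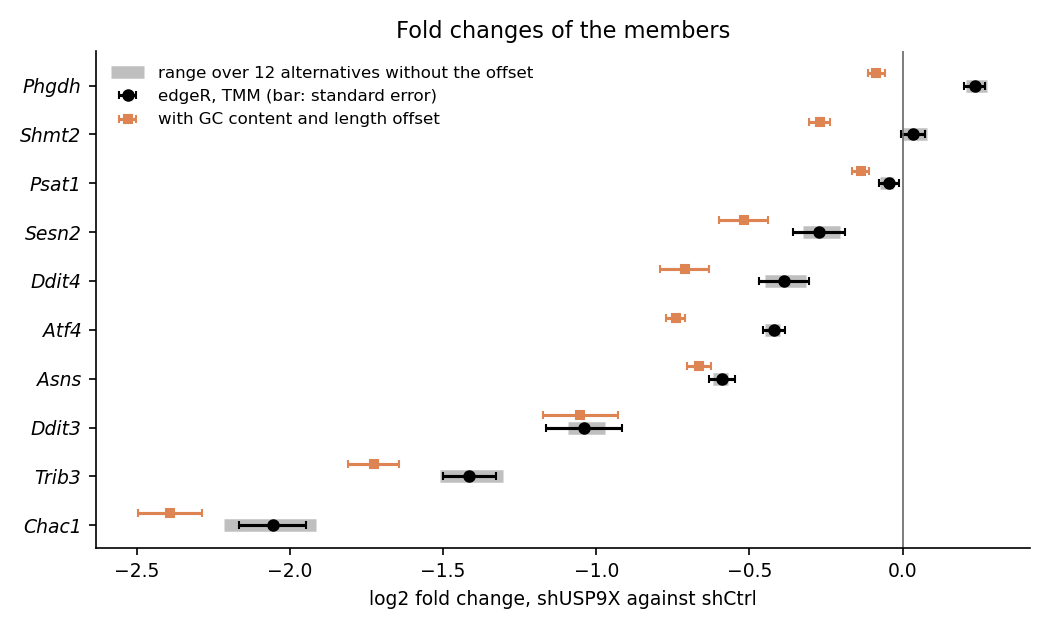
Log2 fold change of each member, shUSP9X against shCtrl (black points, with the standard error as a bar), the range over the 12 alternative fits without the offset (grey) and the value with the GC content and length offset (orange squares, with the standard error). Chac1, Trib3 and Ddit3 stand lowest, and with the offset all 10 orange squares lie below 0.

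GC content and transcript length moved with the fold changes across genes, and the members were placed unevenly along them. Over all genes tested, which are not independent replicates, the log2 fold change rose with GC content (Spearman's rho = 0.43) and fell with length (rho = -0.32). The transcripts of Phgdh, Shmt2, Atf4, Trib3, Chac1, Ddit4 and Sesn2 have a GC content of 55.5 to 58.7%, a range in which 69.0% of the 1515 genes tested had a log2 fold change above 0 (median 0.22). Those of Ddit3, Asns and Psat1 have 45.6 to 48.4%, where 45.5% of 1751 genes did (median -0.04). With an offset that removes both trends within each library, all 10 members were lower, against 30.5% of genes tested, and 0 were higher, against 32.9% (63.4% were called). By the study's cutoff 6 members were lower with the offset, against 14.6% of genes tested, and 0 higher, against 9.61%.

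The offset moved the members by unlike amounts. Ddit3 hardly moved (-1.05), and Asns went to -0.67. Atf4 went to -0.74 (edgeR adjusted p = 2.1e-16), Ddit4 to -0.71, Sesn2 to -0.52, Trib3 to -1.73 and Chac1 to -2.39. Phgdh changed sign, from 0.24 to -0.09 (edgeR adjusted p = 0.0124), as did Shmt2, from 0.03 to -0.27 (edgeR adjusted p = 2.2e-07). Psat1 went to -0.14 (edgeR adjusted p = 2.0e-04). The higher level of Phgdh thus held on the scale of the counts and not after the offset, while Chac1, Trib3 and Ddit3 were the lowest members and Phgdh the highest on both. A difference between shCtrl and shUSP9X that runs along GC content or length is removed by the offset, whether technical or not.

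**Figure D3:**
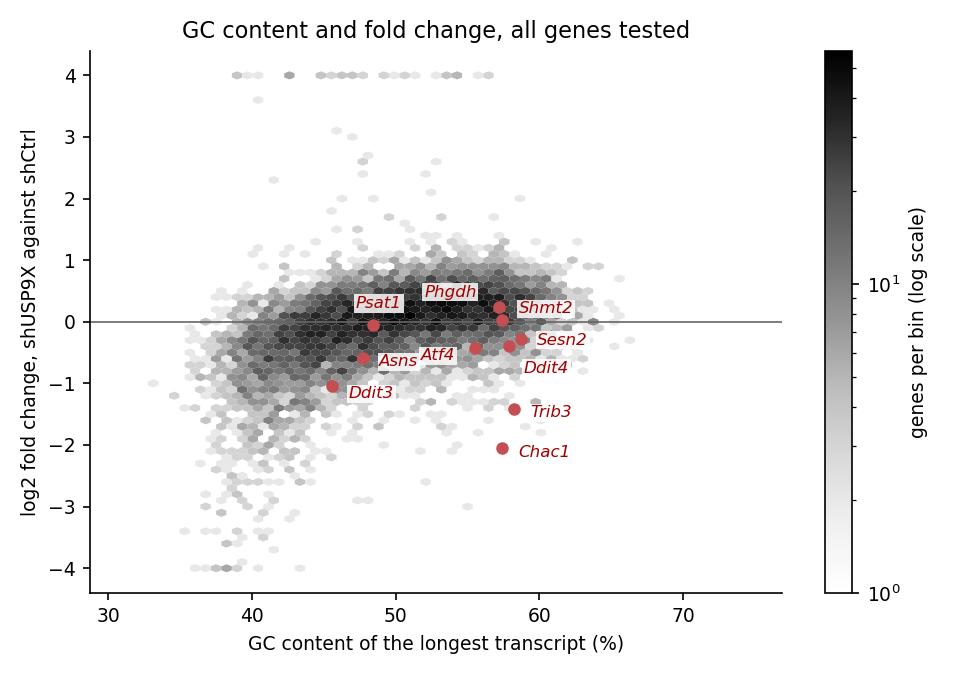
GC content of the longest transcript (percent) against the log2 fold change, shUSP9X against shCtrl, for the genes tested as grey bins shaded by the number of genes (log scale), with the 10 members as red points; values beyond 4 or -4 are drawn at those limits. The grey cloud climbs from left to right, and Chac1, Trib3, Ddit4, Sesn2 and Atf4 lie below its dense band at their GC content.

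Levels were compared between genes per length, in FPKM. In shCtrl the order was Phgdh (304), Atf4 (276), Psat1 (254), Shmt2 (146), Asns (118), Chac1 (29.1), Trib3 (26.6), Ddit3 (24.6), Ddit4 (23.6) and Sesn2 (10.7). Ddit3 (24.1 and 25.2) and Ddit4 (23.0 and 24.2) overlapped there, and the lower library of Chac1 (26.8) met the higher one of Trib3 (26.8). In shUSP9X the order was Phgdh (352), Psat1 (247), Atf4 (202), Shmt2 (146), Asns (76.9), Ddit4 (17.7), Ddit3 (11.5), Trib3 (9.81), Sesn2 (8.69) and Chac1 (6.80), with no overlap between neighbours. Chac1 was thus the sixth of the 10 members in shCtrl and the lowest in shUSP9X.

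**Figure D4:**
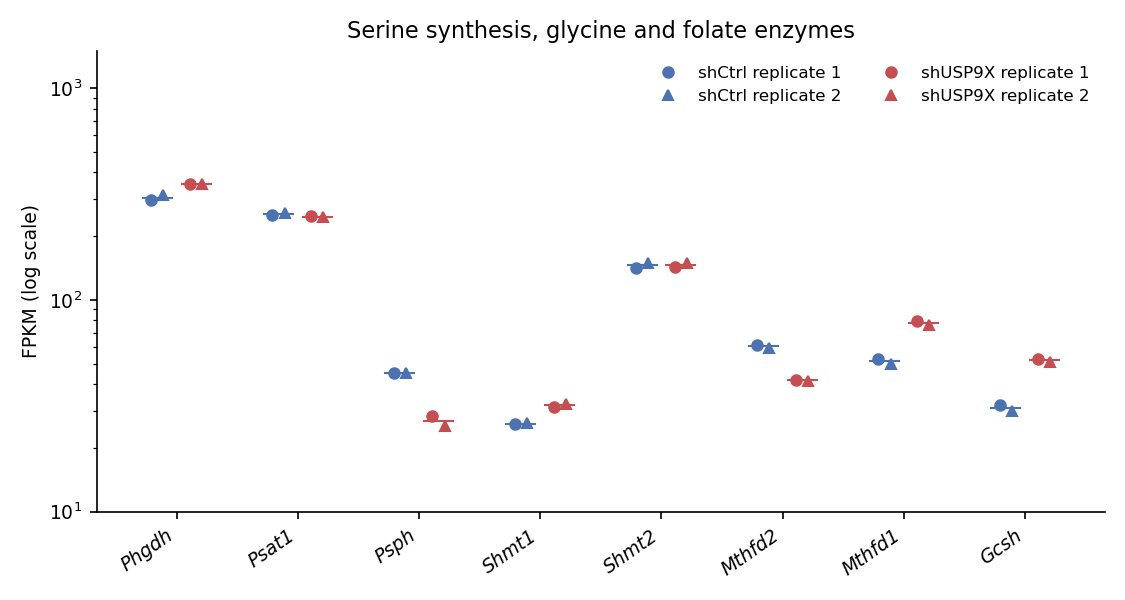
FPKM (log scale) of serine synthesis, glycine and folate enzymes, with 1 point per library (circles replicate 1, triangles replicate 2), shCtrl in blue, shUSP9X in red and the group mean as a line. Phgdh, Psat1 and Shmt2 are the most abundant of the 8 genes and differ least between groups, while Psph (45.1 to 26.8) and Mthfd2 (60.2 to 41.8) are lower and Mthfd1 and Gcsh higher in shUSP9X.

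For the lists from here on, the shares to set beside them are 33.6% lower and 33.8% higher over all genes tested (30.5% and 32.9% with the offset). Around the members, 16 further genes of serine, glycine and one-carbon metabolism were tested, of which 8 fell, 5 rose and 3 were not called, with a median log2 fold change of -0.18. The median was -0.08 without shCtrl replicate 1, -0.03 without shCtrl replicate 2 and 0.02 with the offset, where 7 were higher and 6 lower. Psph, the phosphatase of the last step of serine synthesis, fell (log2 fold change -0.73, edgeR adjusted p = 2.3e-10, and -0.87 with the offset). Its FPKM relative to Phgdh went from 0.152 and 0.144 in shCtrl to 0.0802 and 0.0719 in shUSP9X. Part of that drop is the higher Phgdh by the counts (0.24), which was at -0.09 with the offset. Mthfd2, the mitochondrial folate dehydrogenase, fell by 0.50 on the log2 scale (edgeR adjusted p = 1.7e-09). Mthfd1, a cytosolic folate enzyme, rose by 0.63 (0.39 with the offset), and Shmt1, the cytosolic counterpart of Shmt2, rose by 0.32 (0.19 with the offset). Gcsh, a protein of the glycine cleavage system, rose (0.77), and Srr, the serine racemase, was lower by the counts (-0.86), but not by log2(FPKM + 1) (-0.23, limma-trend adjusted p = 0.277), where the groups overlapped. Amt, another protein of that system, was near the limit of detection at 1.13 ± 0.458 CPM in shCtrl and 0.385 ± 0.0434 CPM in shUSP9X (SD, n = 2 per group), and its call (log2 fold change -1.53, edgeR adjusted p = 0.015) was lost with DESeq2 (adjusted p = 0.147) and in edgeR without shCtrl replicate 2 (-1.06, adjusted p = 0.24), shUSP9X replicate 1 (-1.41, adjusted p = 0.153) or shUSP9X replicate 2 (-1.64, adjusted p = 0.088).

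The sensors above Atf4 were tested as a list of 10 eIF2α kinases, phosphatase subunits and their regulators, of which 6 fell, 3 rose and 1 was not called (median -0.17). Eif2ak3, which encodes the endoplasmic reticulum kinase PERK, fell from 45.0 ± 1.42 to 30.2 ± 2.04 CPM (SD, n = 2 per group; log2 fold change -0.57, edgeR adjusted p = 7.1e-07). Eif2ak2, for the RNA-sensing kinase PKR, was lower by a like amount (-0.56, and -0.24 with the offset), and Eif2ak4, for the amino acid sensor GCN2, stood at -0.18 (edgeR adjusted p = 0.0436), a call lost with DESeq2 (adjusted p = 0.261) and with the offset (adjusted p = 0.0588), and at -0.15, -0.13 and -0.22 in edgeR without shCtrl replicate 2, shUSP9X replicate 1 or shUSP9X replicate 2. Eif2ak1, for the heme-regulated kinase HRI, was not called (0.09, edgeR adjusted p = 0.18), but was at 0.19 without shCtrl replicate 2 (adjusted p = 0.0053). Ppp1r15a, the stress-induced phosphatase subunit GADD34 and itself a target of the pathway, fell (-0.58, edgeR adjusted p = 4.1e-06, and -0.88 with the offset), and its constitutive counterpart Ppp1r15b changed less (-0.16), with no call with the offset (-0.07) or without shUSP9X replicate 1 (-0.14). Gcn1, which activates GCN2, and Dele1, which carries mitochondrial stress to HRI, both rose by 0.41. Eif2s1, eIF2α itself, rose by 0.14, and by 0.67 with the offset, but missed the threshold without shUSP9X replicate 2 (0.14, adjusted p = 0.0621) and in limma-trend on log2(FPKM + 1) (0.11, adjusted p = 0.0793) and log2(FPKM + 0.1) (0.12, adjusted p = 0.0809).

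Of 9 bZIP partners and repressors of ATF4, 7 fell and 2 rose, with a median of -0.50. Cebpg, a dimer partner of ATF4 at amino acid genes, fell from 93.0 ± 3.30 to 48.8 ± 2.06 CPM (SD, n = 2 per group; log2 fold change -0.93, edgeR adjusted p = 3.3e-13), and was at -0.53 with the offset. Atf5, a close relative regulated in the same way by translation, fell by 0.79 and Cebpd by 0.71 on the log2 scale. Atf3 was lower (-0.39, edgeR adjusted p = 0.0324, and -0.67 with the offset) at 10.2 ± 0.698 CPM in shCtrl and 7.86 ± 1.31 CPM in shUSP9X (SD, n = 2 per group), and its call was lost with DESeq2 (adjusted p = 0.235) and in edgeR without shCtrl replicate 1 (-0.31) or shUSP9X replicate 1 (-0.22). Cebpb (0.39, and 0.15 with the offset) and Nfe2l2, the gene of the antioxidant factor NRF2 (0.29), rose.

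Among other enzymes of amino acid synthesis, 4 fell and 4 rose of 8 tested (median -0.08). The median was -0.04 without shUSP9X replicate 1, -0.19 with DESeq2, near 0 by FPKM and 0.25 with the offset, where 5 were higher and 3 lower. Gpt2, the mitochondrial alanine transaminase, fell from 71.7 ± 1.14 to 33.7 ± 0.0288 CPM (SD, n = 2 per group; log2 fold change -1.09, edgeR adjusted p = 1.1e-13). The proline route was split, since Aldh18a1, its first enzyme (-0.52), and Pycr1, a mitochondrial reductase of its last step (-0.66), fell while Pycrl, another reductase of that step, rose (0.88, and 0.53 with the offset). Got1, the cytosolic aspartate transaminase, rose (0.55, and 0.28 with the offset).

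Of 8 amino acid transporters, 5 fell, 0 rose and 3 were not called by the counts (median -0.15, and -0.29 with DESeq2), and with the offset 6 were lower and 2 higher (median -0.28). Slc38a2, the transporter SNAT2, had 556 and 564 CPM in shCtrl and 364 and 361 CPM in shUSP9X (log2 fold change -0.63, edgeR adjusted p = 1.3e-14), and was at -0.25 with the offset. Slc6a9, a glycine transporter, was lower (-0.30, and -0.55 with the offset), a call lost with DESeq2 (adjusted p = 0.0534) and in edgeR without shCtrl replicate 2 (-0.15) or shUSP9X replicate 1 (-0.21). Slc7a11, the cystine transporter subunit xCT, was lower by the counts (-0.40, edgeR adjusted p = 2.1e-04) but 0.52 with the offset and 0.09 by log2(FPKM + 1), so its direction depended on the scale.

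The list of cytosolic tRNA synthetases, with 21 genes tested, went both ways, with 11 lower, 8 higher and 2 not called (median -0.23). Among the 11 was Xpot (-0.24, and 0.01 with the offset), named here because it encodes a tRNA exportin and not a synthetase. Eprs fell by 1.10, Cars by 0.82 and Lars by 0.71 on the log2 scale, and Kars (0.86), Hars (0.45) and Qars (0.41) rose. With the offset Eprs was at -0.70, Hars at 0.24 and Qars at 0.22. Of 12 other stress targets of ATF4, 6 fell, 2 rose and 4 were not called (median -0.49). Vldlr, a lipoprotein receptor, fell from 18.1 ± 1.68 to 3.78 ± 0.117 CPM (SD, n = 2 per group; log2 fold change -2.26, edgeR adjusted p = 1.0e-12). Ndrg1, a stress gene also known as a hypoxia target, fell by 1.41, and Herpud1, a protein of endoplasmic reticulum degradation, fell by 1.04 on the log2 scale. Sqstm1 (0.44), the autophagy receptor p62, and Eif4ebp1 (0.28), the translation repressor 4E-BP1, rose, with smaller values with the offset (0.16 and 0.17).

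**Figure D5:**
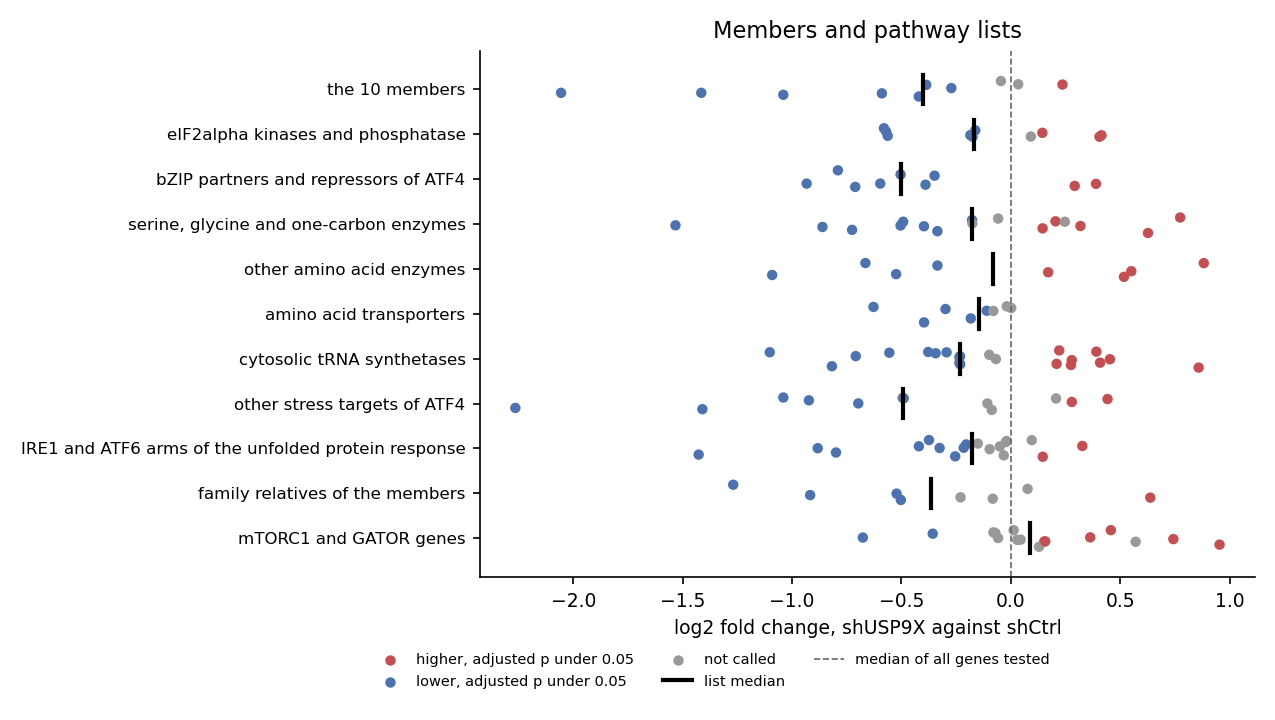
Log2 fold change, shUSP9X against shCtrl, of each tested gene of the members and the pathway lists (blue lower, red higher, grey not called at an adjusted p under 0.05), with the list median as a black bar and the median of all genes tested as a dashed line. The members reach from -2.06 to 0.24, the bZIP and other stress target lists have medians near -0.50, and without the offset the mTORC1 and GATOR list is the one whose median lies above the line.

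The other arms of the unfolded protein response, which run through IRE1 and ATF6, held 18 tested genes, of which 9 fell, 2 rose and 7 were not called (median -0.18). With the offset 11 were lower and 4 higher (median -0.15), and Canx and Atf6, named after their values were seen, went from lower (-0.33 and -0.20) to higher (0.15 and 0.15). Hspa5, the chaperone BiP, had 1640 ± 62.9 CPM in shCtrl and 945 ± 4.62 CPM in shUSP9X (SD, n = 2 per group; log2 fold change -0.80, edgeR adjusted p = 1.1e-17). Hsp90b1, the chaperone GRP94, fell by 1.43 and Dnajc3, an inhibitor of PERK, by 0.88 on the log2 scale (0.44 with the offset). Xbp1, the factor spliced by IRE1, fell by 0.22, and by 0.51 with the offset. Hyou1 rose (0.33). Calr, the chaperone calreticulin, was higher (0.15), but was at -0.04 with the offset.

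Of 8 family relatives of the members, 4 fell, 1 rose and 3 were not called (median -0.37, and -0.02 with the offset, where 3 were lower and 2 higher). Sesn3 fell by 0.92 (0.39 with the offset) and Sesn1 by 0.50 on the log2 scale. Trib1, a pseudokinase related to Trib3, rose (0.64, edgeR adjusted p = 1.2e-10). Chac2, the relative of Chac1 that is expressed without stress, was not called (-0.23, edgeR adjusted p = 0.163), but was at 0.49 with the offset and at -0.44 without shUSP9X replicate 2 (adjusted p = 0.0267). Ddit4l, at 0.832 ± 0.372 CPM in shCtrl and 0.799 ± 0.129 CPM in shUSP9X (SD, n = 2 per group), was not called. Creb1 fell by 1.27, and by 0.29 with the offset, and Atf2 was lower (-0.52) but at 0.10 with the offset.

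The mTORC1 and GATOR genes, on which sestrins and REDD1 act, had 6 of 16 higher, a share near the 33.8% of all genes, with 2 lower and 8 not called (median 0.09, and 0.05 by log2(FPKM + 1) and 0.11 with the offset). Mlst8 (0.95), Akt1s1 (0.74, and 0.46 with the offset) and Rptor (0.46), parts of mTORC1, rose. Mios (-0.68, and -0.41 with the offset) and Wdr59 (-0.36), parts of GATOR2, were lower, the latter without a call in DESeq2 (adjusted p = 0.0563) or in edgeR without shUSP9X replicate 2 (-0.25, adjusted p = 0.0887). Over all these pathway lists 126 of 137 genes were tested, of which 62 fell, 33 rose and 31 were not called, with a median of -0.17. With the offset 60 were lower and 39 higher, and the median was -0.15. Over all genes tested 33.6% were lower and 33.8% higher, and with the offset 30.5% and 32.9%.

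The cells were also checked for their labelled type. Krt8, Krt18, Krt19, Wt1, Msln and Upk3b, keratins and mesothelial genes, had at least 2572 counts in every library. Some differed between the groups, with Krt8 (log2 fold change 0.92, and 0.60 with the offset) and Krt18 (0.64, and 0.29) higher and Wt1 (-0.52, and -0.79) and Msln (-0.47, and -0.78) lower in shUSP9X. Krt19 was higher by the counts (0.12) but lower with the offset (-0.22), and Upk3b was not called (0.05) but lower with the offset (-0.20). Krt7, Epcam and Pax8 had at most 9 counts in any library, Cdh1 had 57 and 26 in shCtrl and 52 and 53 in shUSP9X, and Muc16 went from 33 and 43 to 1 and 0. Some leukocyte markers moved with the group. Itgam (72 and 75 counts), Adgre1 (58 and 59), Ptprc (29 and 18) and Csf1r (17 and 13) were counted in shUSP9X and had 0 counts in both shCtrl libraries. The 9 leukocyte markers summed to 4.27 and 4.3 CPM in shCtrl and 14.9 and 15.0 CPM in shUSP9X. Cd68, the most abundant, was not called (log2 fold change 0.37, edgeR adjusted p = 0.125, and 0.03 with the offset). Cd3e and C1qa were at 0 in every library, and Lyz2 had at most 2 counts. The endothelial, erythroid and adipocyte marker lists each summed to at most 1.27 CPM in any library. The part of these epithelial, mesothelial and leukocyte genes in the changes of the members was not tested. In bulk RNA, fewer cells that express a gene and less of its RNA per cell cannot be told apart.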

How the data were processed

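RNA of ID8 cells (2 shCtrl and 2 shUSP9X libraries) was enriched with oligo(dT) beads and sequenced. The study's methods name GRCm38, StringTie and DESeq2, and the submitters' processing notes name fastp 0.18.0, Bowtie2 2.2.8, HISAT2, StringTie 1.3.1 and RSEM without their roles. The authors deposited estimated counts per gene, which were not normalised, and FPKM values, scaled for length and depth.

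The test had been planned for whole counts. Between 6.4% and 6.69% of the estimated counts were not whole, so they were rounded. After filterByExpr and TMM normalisation, 11448 genes were fitted by group, without a block, in edgeR 4.0.16 (R 4.3.3). P-values came from its quasi-likelihood test and were adjusted by Benjamini-Hochberg over all of them. The standard error is the log2 fold change divided by the square root of the quasi-F statistic. The floor of detection, 3 counts, is 0.152 to 0.19 CPM, and covers counting error only. GC content and length are those of the longest GENCODE M21 transcript (GRCm38), known for 99.8% of the genes tested. The procedure was tested on simulated data.

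Named were Usp9x, the 10 members, up to 3 called genes with the largest rises and 3 with the largest falls of each pathway list, 18 fixed regulators and relatives whatever their values, and the 3 genes nearest to Atf4. A gene of the lists that met this rule and a marker are not reported here. The members and lists were chosen with earlier results of these data known. The alternatives were DESeq2 1.42.0, its size factors, library size only, other filters, limma-trend (limma 3.58.1) on log2 FPKM with a pseudocount of 1 or 0.1 where the mean FPKM reached 1, a GC content and length offset (loess, span 0.3), a replicate block and each library left out. With 2 libraries against 2, no permutation test was run.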

Additional observations from a re-analysis of the deposited data

How the results depend on the processing

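Of the 140 values of the 10 members over 14 alternatives, 131 kept their direction and their side of the threshold. The exceptions were Sesn2, whose call was lost in 3 fits, and Psat1, Phgdh and Shmt2 with the GC content and length offset, with or without a replicate block. With that offset 0 members were higher and 10 lower, also together with a replicate block (0 higher). Turns where neither the main fit nor the alternative called the gene are not listed. Among the 10 members and the 63 other named genes, the other values that turned were, with the offset and with the offset and the replicate block, -0.0853 and -0.0852 for Phgdh, -0.2707 and -0.2706 for Shmt2, 0.5202 and 0.5226 for Slc7a11, -0.0447 and -0.0442 for Calr, 0.1016 and 0.1014 for Atf2, 0.4863 and 0.48 for Chac2, and 0.1431 and 0.1436 for Rap1b. Outside that set, genes such as Canx, Atf6 and Krt19, whose values are given above, turned with the offset as well. Slc7a11 also turned by FPKM (0.0884 with a pseudocount of 1 and 0.1044 with 0.1). These turned through the removal of the GC content and length trends or the change of unit, and the cause of the trends was not tested.

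Libraries with the same number did not deviate together (correlation -0.0453), so the numbers were not taken as pairs. With the replicate block alone Atf4 was at -0.4204, and no call of a member changed. With each library left out, 6 to 7 members were lower and 1 was higher. Over all alternatives, genes higher numbered 3184 to 4039 and genes lower 2985 to 4031. Counts per member were at least 164, and precision is lowest for Ddit3, Chac1 and Trib3. Of 876 values of the 63 other named genes, 831 kept their call or lack of one, and those called also kept their direction. The direction of genes without a call was not counted.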
